A study of Mus musculus with 6 samples.

Results

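The Myc family genes examined in germline stem (GS) cells were Myc, Mycn, Mycl, Max, Mxd1, Mxi1 and Mga. They were found by their symbols in a table of raw counts, and 7 of 32285 genes in the table were members. All 7 passed the filter on low counts, which left 15104 genes. GS cells are cultured spermatogonia that self-renew with the growth factors GDNF and FGF2 on feeder layers of mouse embryonic fibroblasts, and that restore spermatogenesis after transplantation. The cells of both groups came from testes of mice aged 2 to 3 days, of the genotype DBA/Tg14(act-EGFP-OsbY01) and the strain DBA/2, and so carried an EGFP transgene. They were stored frozen for 6 months, either on the International Space Station (Space, 3 libraries) or on the ground (Ground, 3 libraries), and per the study RNA was taken on the day after thawing without passage. The titles and the treatment labels of all 6 libraries contradict each other. Space and Ground follow the titles here, and each direction would turn if the treatment label were right. The study speaks of 3 lines of GS cells, but the labels do not say which libraries share a line, so p-values measure the spread between these libraries only.

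MYC, MYCN and MYCL are transcription factors that bind DNA as dimers with MAX, at the E-box CACGTG, and activate genes of growth, ribosome production, nucleotide synthesis and glycolysis. MXD1 and MXI1 compete for MAX and recruit repressors to the same sites. MGA also pairs with MAX, has a T-box in addition, and belongs to the Polycomb complex PRC1.6, which keeps germ cell and meiotic genes silent in embryonic stem cells. In spermatogonial stem cells Myc and Mycn are known to promote self-renewal and glycolysis.

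Library totals lay between 19015985 and 24110916 counts, and mitochondrial transcripts took 2.51% to 11.5% of them. Germ cell markers were abundant in every library, with a summed level over 10 of 10 tested markers of 2789 to 3226 counts per 1000000 counts of the scaled library (CPM) in Ground and 2869 to 3230 CPM in Space. The 10 fibroblast markers, all tested, summed to 658 to 680 CPM in Ground and 561 to 687 CPM in Space. In bulk RNA fewer cells of a type and less RNA per cell cannot be told apart. Libraries did not resemble each other by group. Relative to sampling noise, the counts of 2 libraries gave a median chi-square over genes of 1.55 for Ground-1 and Space-3, 2.63 for Ground-2 and Space-2 and 2.55 for Ground-3 and Space-1, and 5.01 to 10.4 for the other pairs of libraries. This crossed matching comes from the values of all genes and from no label.

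Mycn was the most abundant of the 7 genes and Myc the least. Levels of different genes were compared as CPM per kilobase of joined exons, averaged over the 6 libraries. Mycn had 40.3 ± 9.86 CPM per kilobase (SD, n = 6), Mga 20.8 ± 0.947, Max 14.4 ± 0.689 and Mycl 9.61 ± 2.37. Mxi1 had 6.74 ± 0.558, Mxd1 1.52 ± 0.225 and Myc 0.601 ± 0.323 CPM per kilobase. Each gene exceeded the next in this order in 6 of 6 libraries. The ranges of Mycl, 6.53 to 12.1, and Mxi1, 5.94 to 7.22, overlapped, and those of the other neighbours did not. The order of Mga and Max depended on the length used, which differed more for Max. Joined exons and longest transcript span 3598 and 1942 bases for Max, and 15340 and 13931 for Mga. With the longest transcript of each gene in place of all joined exons, 5 of 7 genes kept their rank and Max came before Mga.

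**Figure D1:**
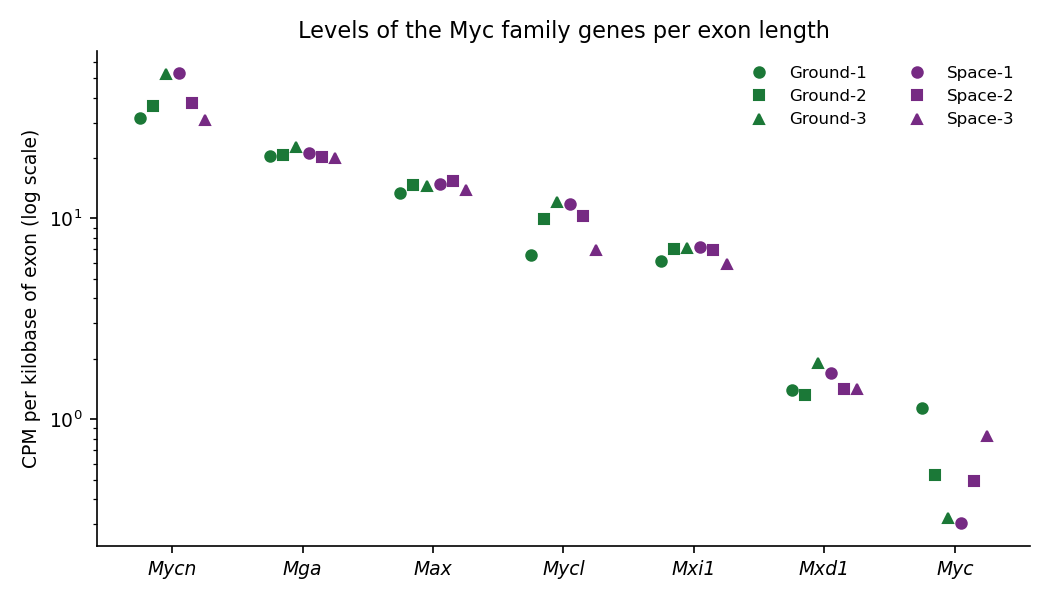
Level of each Myc family gene in CPM per kilobase of exon (vertical log axis), 1 point per library, green for Ground and purple for Space, with circles, squares and triangles for title numbers 1, 2 and 3. Mycn lies at 30.8 to 52.9 and Myc at 0.303 to 1.14, and in every gene the colours intermix.

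Mycn (chr12:12936093-12941914, minus strand, GRCm38 with GENCODE M21 as for all loci given here) encodes the MYC paralogue used in many stem and progenitor cells of the embryo. Values by library are given in the order of the title numbers 1, 2 and 3. Mycn had 105, 119 and 172 CPM over the Ground libraries and 174, 124 and 102 CPM over the Space libraries. The highest values were in Ground-3 and Space-1 and the lowest in Ground-1 and Space-3, so the groups overlapped over nearly their whole range. The means were 132 ± 35.5 CPM in Ground and 133 ± 37.1 CPM in Space (SD, n = 3). The log2 fold change of Space relative to Ground was 0.014 (SE 0.23, edgeR quasi-likelihood adjusted p = 0.9999), with a 95% interval of the fold from 0.695 to 1.47. Within the crossed matching the ratio of Space to Ground was 0.972 to 1.04, against a ratio of 1.71 between the highest and the lowest of the 6 libraries.

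The sequence before the start of Mycn is shown because Mycn was the most abundant paralogue and its window holds matches to a cell cycle motif. The region is chr12:12941915-12942086, on the minus strand of GRCm38.p6 (RefSeq), before every annotated start of Mycn. Capitals mark matches to the E2F letters TTTGGCGC or TTTCGCGC on either strand. E2F factors drive genes of DNA replication.
Mycn: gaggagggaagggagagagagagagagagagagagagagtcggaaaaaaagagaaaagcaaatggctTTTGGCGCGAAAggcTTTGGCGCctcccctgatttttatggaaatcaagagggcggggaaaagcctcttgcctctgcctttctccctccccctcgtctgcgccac
The window held 3 such matches, of which the first and the second overlap, and no E-box. These letters occur in 0.813% of the 32851 RefSeq promoter windows of 250 bases before to 50 bases after a start. Of the 7 members 6 had such windows, 8 in all, while Myc had none and was not searched. The other 7 windows held no match to the E2F letters. This motif was chosen after the sequence had been seen, and a match describes letters only.

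Mycl (chr4:122995652-123002485, plus strand) encodes the third paralogue. It had 26.4, 40.04 and 49.0 CPM over the Ground libraries and 47.7, 41.5 and 28.2 CPM over the Space libraries. As for Mycn, the highest libraries were Ground-3 and Space-1 and the lowest Ground-1 and Space-3. The means were 38.5 ± 11.4 CPM in Ground and 39.1 ± 9.95 CPM in Space (SD, n = 3), and the log2 fold change was 0.025 (SE 0.25, edgeR adjusted p = 0.9999). The 95% interval of the fold was 0.678 to 1.53.

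Myc, the founding member and an immediate response gene of growth factors, had few counts and a wide counting error. Its locus is chr15:61985391-61990374 on the plus strand. It had 75, 27 and 20 counts over Ground libraries and 20, 25 and 56 counts over Space libraries. In Ground this was 3.09 CPM (exact 95% Poisson interval 2.43 to 3.87, counting error only), 1.44 CPM (0.947 to 2.09) and 0.877 CPM (0.536 to 1.35). In Space it was 0.824 CPM (0.503 to 1.27), 1.33 CPM (0.862 to 1.97) and 2.24 CPM (1.69 to 2.91). The libraries with the highest Myc, Ground-1 and Space-3, were those with the lowest Mycn and Mycl, and the intervals of Ground-1 and Space-3 lay above those of Ground-3 and Space-1. The group means of 1.80 ± 1.15 and 1.47 ± 0.717 CPM (SD, n = 3) did not differ beyond this spread, at a log2 fold change of -0.30 ± 0.53 (SE, adjusted p in edgeR 0.9999). The 95% interval of the fold was wide, from 0.347 to 1.90. Without Ground-1 the log2 fold change of Myc was 0.36 in the fit without a block, in which Space-3, also high in Myc, remained. Within the crossed matching the ratio of Space to Ground was 0.725 to 0.939.

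**Figure D2:**
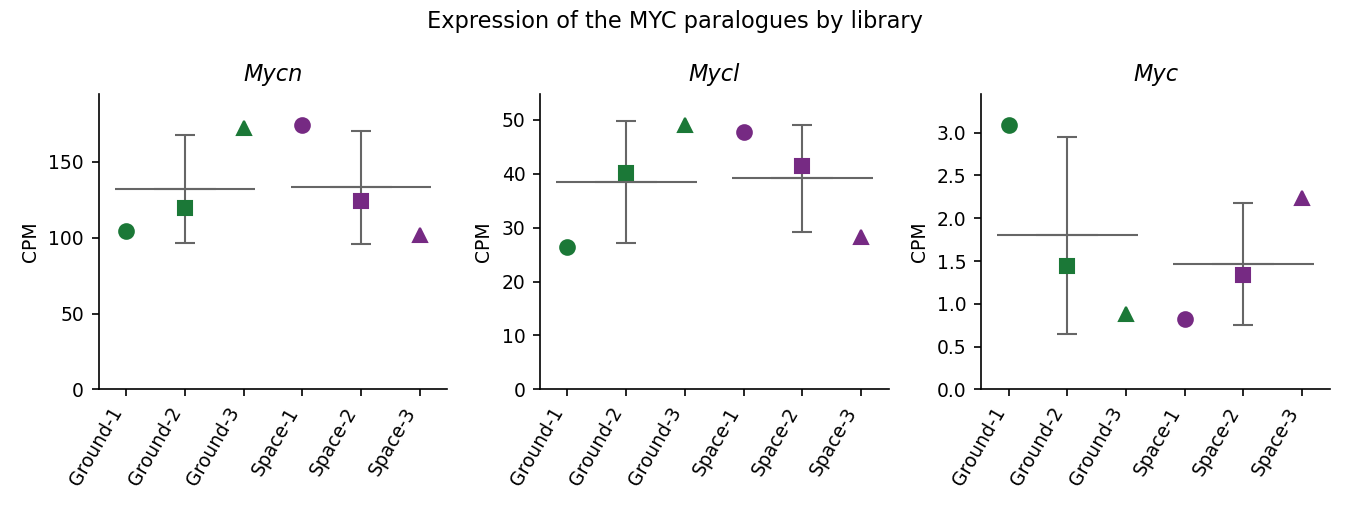
CPM of Mycn, Mycl and Myc (vertical axes, each from 0) in the 6 libraries, with the group mean as a horizontal line and the SD as a bar (n = 3). Mycn and Mycl peak in Ground-3 and Space-1, at 172 and 174 CPM for Mycn, where Myc has its lowest values of 0.877 and 0.824 CPM.

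The sum of the 3 paralogues differed between libraries more than the shares of Mycn and Mycl in it. Summed per kilobase, Myc, Mycn and Mycl had 39.4, 46.7 and 64.7 CPM per kilobase over Ground libraries and 65.0, 48.4 and 38.7 over Space libraries. Mycn made up 77.6% to 81.3% of this sum in the 6 libraries, Mycl 16.6% to 21.2% and Myc 0.467% to 2.88%. The ratio of Mycn to Mycl stayed between 3.66 and 4.85, while that of Mycn to Myc ran from 27.9 in Ground-1 to 174 in Space-1. These shares count RNA and not protein.

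Max (chr12:76937269-76962201, minus strand), the shared partner, varied far less than the paralogues. It had 48.2, 52.5 and 52.2 CPM over Ground libraries and 53.2, 55.3 and 49.99 CPM over Space libraries. Space-2 was highest and Ground-1 lowest, and the groups overlapped. The means were 51.0 ± 2.38 CPM in Ground and 52.8 ± 2.68 CPM in Space (SD, n = 3), with a log2 fold change of 0.051 ± 0.071 (SE, adjusted p in edgeR 0.9999) and a 95% interval of that log2 value from -0.11 to 0.22. The SD of log2 CPM over the 6 libraries was 0.069, and 16.7% of tested genes had a smaller one. That share was 79.1% for Mycn, 82.1% for Mycl and 96.9% for Myc, whose counts are low. The summed paralogues were 2.78 to 4.46 times Max per kilobase of joined exons, lowest in Space-3 and highest in Ground-3. This ratio depends on the length used. The joined exons of Max span 3598 bases and its longest transcript 1942, and the ratio was not recomputed with the latter.

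Max was the member with an E-box, the site its own dimers bind, in a RefSeq promoter window. The match is shown with 12 bases on each side, at chr12:76962234-76962263 on the minus strand of GRCm38.p6, with CACGTG in capitals.
Max: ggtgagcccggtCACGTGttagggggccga
None of the other 7 windows of the members held CACGTG, which occurs in 7.15% of all windows, and reads the same on both strands. Myc had no window and was not searched.

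The antagonists Mxd1 (chr6:86647042-86669161, minus strand) and Mxi1 (chr19:53310518-53375810, plus strand) were expressed at different levels. Mxi1 had 41.7, 48.2 and 48.6 CPM over Ground libraries and 49.3, 47.4 and 40.6 CPM over Space libraries. Ground-1 and Space-3 were again the lowest, by a smaller margin than for Mycl. Mxd1, which is known to be raised as cells leave the cycle and differentiate, had 9.84, 9.32 and 13.4 CPM over Ground libraries and 11.98, 9.96 and 10.04 CPM over Space libraries, with the highest values in Ground-3 and Space-1. The log2 fold change was -0.013 for Mxi1 (SE 0.10) and -0.027 for Mxd1 (SE 0.17), both at an edgeR adjusted p of 0.9999, with 95% intervals on the log2 scale of -0.25 to 0.22 and -0.43 to 0.38. Exons of Mxi1 share 194 of 6823 bases with Gm10197 on the opposite strand, and the strand setting of the counting was not stated. The exons of the other members shared no bases with those of another annotated gene.

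Mga (chr2:119897228-119969581, plus strand), the scaffold of PRC1.6, had the smallest SD of log2 CPM over the 6 libraries among the 7 genes, 0.064. It had 314, 317 and 347 CPM over the Ground libraries and 324, 309 and 308 CPM over the Space libraries. Ground-3 stood highest and the other 5 libraries lay close together, with both groups among them. The means were 326 ± 18.4 CPM in Ground and 314 ± 8.84 CPM in Space (SD, n = 3), with a log2 fold change of -0.055 ± 0.060 (SE, adjusted p in edgeR 0.9999) and a 95% interval of the fold from 0.874 to 1.06.

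The study asked whether storage in space altered the expression profile of GS cells. With edgeR's quasi-likelihood test 0 of the 7 Myc family genes had an adjusted p under 0.05, and 0 had an unadjusted p under 0.05. DESeq2 and limma-voom also called 0 of 7. The background over all 15104 genes was 0% in edgeR. Both groups overlapped in all 7 members, as they did in most tested genes, of which 3.59% showed no overlap. Of the 7 log2 fold changes 3 were above 0 and 4 below, with a median of -0.013 against -0.0020 over all tested genes. With 3 libraries against 3 an exact permutation test of a single gene could not go below p = 0.1.

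Taking the crossed matching as a replicate block narrowed the intervals without changing a call. With this block, which called 0.252% of all tested genes, 0 of the 7 members passed and 1, Mga, had an unadjusted p under 0.05, with a log2 fold change of -0.054 and an SE of 0.025. Its edgeR adjusted p was 0.636, and 1097 of all 15104 tested genes had an unadjusted p under 0.05 with this block. Within the crossed pairs the ratios of Space to Ground were 0.933 to 0.981 for Mga. The standard error of Mycn went from 0.23 to 0.031 and that of Mycl from 0.25 to 0.052. Max had ratios of 1.02 to 1.05 (edgeR adjusted p = 0.860 with the block). Myc had ratios of 0.725 to 0.939 (edgeR adjusted p = 0.864 with the block). Myc had 20 counts in both Ground-3 and Space-1, and 27 and 25 in Ground-2 and Space-2, so its ratios in these pairs rest on few counts. This replicate block was built from the counts that it was used to test, so its errors may be too small. It also called 3 of the 10 fibroblast markers, Dcn, Col3a1 and Col1a2, and all 10 had log2 fold changes below 0 in the fit without a block.

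**Figure D3:**
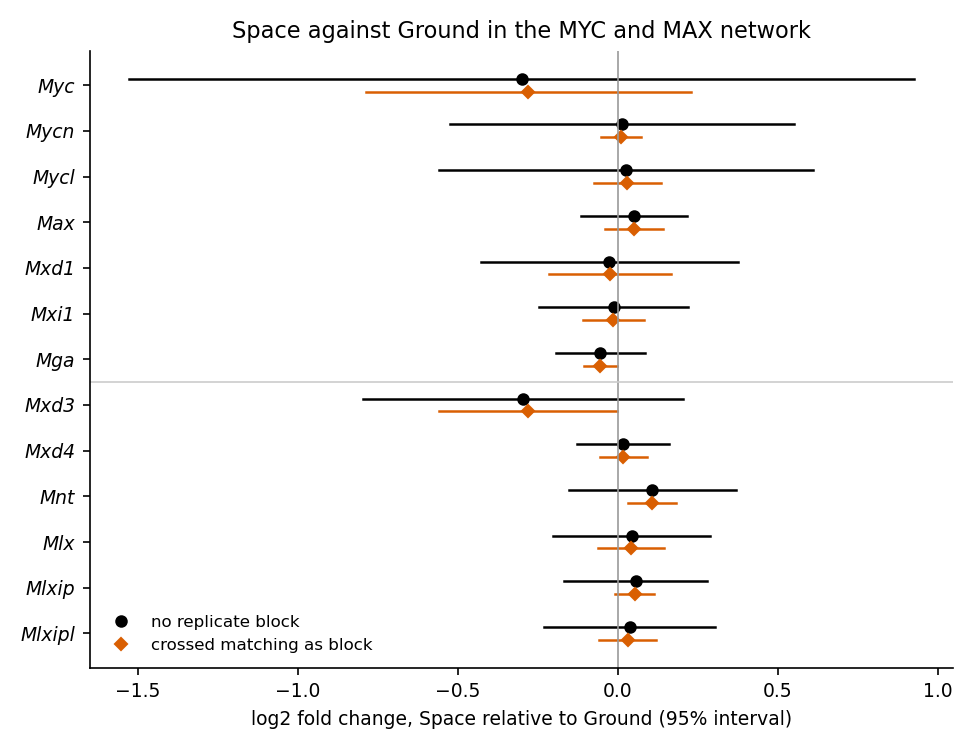
Log2 fold change of Space relative to Ground (horizontal axis) with its 95% interval for the 7 Myc family genes (above the line) and 6 partners in the MAX network (below it), from the edgeR fit without a block (black circles) and with the crossed matching as a block (orange diamonds). Every black interval includes 0. The orange intervals of Mga (-0.105 to -0.0037), Mnt (0.031 to 0.183) and Mxd3 (-0.558 to -0.0029) exclude 0, and that of Mycn runs from -0.052 to 0.073.

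The other members of the MAX network were all expressed, and 0 of the 6 passed the edgeR test, none with an unadjusted p under 0.05. Mnt, a repressor that pairs with MAX in most cells, had 73.4 ± 8.69 CPM in Ground and 79.2 ± 9.13 CPM in Space (SD, n = 3), a log2 difference of 0.11 (SE 0.11). Mxd4 had 80.5 ± 3.91 and 81.3 ± 3.05 CPM (0.016, SE 0.062), and Mxd3, a repressor linked to S phase, 5.74 ± 1.28 and 4.67 ± 0.597 CPM (-0.30, SE 0.22). Mxd4 had an SD of log2 CPM over the 6 libraries of 0.056, and Mxd3 was the least abundant of the 3. Mlx, the alternative partner of some MXD proteins, had 39.0 ± 4.52 and 40.2 ± 3.11 CPM. Its glucose-sensing partners Mlxip and Mlxipl had 155 ± 14.2 and 161 ± 17.0 CPM, and 62.2 ± 7.34 and 63.8 ± 7.61 CPM. With the crossed matching as a block 2 of the 6, Mnt and Mxd3, had an unadjusted p under 0.05, as had 1097 of all 15104 tested genes. Their edgeR adjusted p with this block was 0.421 for Mnt and 0.686 for Mxd3. Summed per kilobase, the paralogues Myc, Mycn and Mycl were 1.07 to 1.69 times the repressors Mxd1, Mxi1, Mxd3, Mxd4 and Mnt. This ratio was lowest in Space-3 and highest in Ground-3, and it was computed with joined exons only.

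Genes that work with or downstream of the family were taken from 9 lists of 105 genes written from general knowledge, of which 104 were found and tested. Of these 104, 0 passed edgeR's test and 0 had an unadjusted p under 0.05. DESeq2 and limma-voom also called 0. Their median log2 fold change was -0.0025, with 46 above 0 and 58 below. With the crossed matching as a block 0 passed and 13 of 104 had an unadjusted p under 0.05, against 1097 of all 15104 tested genes, with a lowest edgeR adjusted p of 0.229.

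The 13 cofactors had a median log2 fold change of 0.011, with 8 above 0 and 5 below, and the lowest was -0.039 for the acetyltransferase Kat5 (SE 0.084). Ep400, a chromatin remodeller recruited by MYC, was the most abundant, with 545 ± 42.9 CPM in Ground and 559 ± 44.4 CPM in Space (SD, n = 3). The 10 genes of MYC phosphorylation, ubiquitylation and stability had a median of 0.0037, with 5 above 0 and 5 below, and the highest log2 fold change was 0.065 for the deubiquitinase Usp36 (SE 0.051). The ubiquitin ligase Huwe1 led this list with 1363 ± 114 and 1350 ± 80.6 CPM. No gene of either list passed the test.

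The partners of Mga in PRC1.6 were present throughout. The 11 subunits had log2 fold changes from -0.10 (Yaf2, SE 0.11) to 0.21 (Ring1, SE 0.15), with a median of 0.0048, and Ehmt2, a histone H3 lysine methyltransferase, was the most abundant with 649 ± 20.1 CPM in Ground and 663 ± 42.9 CPM in Space. The germ cell and meiotic genes that Mga and Max hold silent in embryonic stem cells were expressed in these GS cells. Of 15 listed genes 14 were found and tested, with 4 log2 fold changes above 0 and 10 below, a median of -0.024 and a range from -0.13 (Sycp3, SE 0.10) to 0.039 (Tdrkh, SE 0.049). Dazl, an RNA-binding protein of germ cells, had 880 ± 60.8 CPM in Ground and 866 ± 91.6 CPM in Space (SD, n = 3). Sycp3, a component of the meiotic chromosome axis, had 31.7 ± 1.46 and 29.0 ± 3.35 CPM.

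The 28 growth targets of MYC had a median log2 fold change of 0.0015, with 15 above 0 and 13 below. The nucleolar protein Ncl, the most abundant, had 1349 ± 66.1 CPM in Ground and 1376 ± 68.6 CPM in Space (SD, n = 3). Cad, which starts pyrimidine synthesis, had the highest log2 fold change of 0.061 (SE 0.098), and Srm, the spermidine synthase, the lowest of -0.15 (SE 0.11). Of the 14 glycolysis genes 13 had log2 fold changes below 0, with a median of -0.047. None passed the test, and without Ground-3 the median was 0.016. Pkm led with 1091 ± 34.7 and 1083 ± 48.9 CPM, and Hk2, the hexokinase that is a known MYC target, had 276 ± 71.7 and 284 ± 63.4 CPM.

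Genes that MYC is known to repress had a median log2 fold change of -0.12, with 5 of 6 below 0. Without Ground-1 the median was -0.21, and without Ground-3, Space-2 or Space-3 it was -0.063, -0.069 and -0.078. Cdkn2b, an inhibitor of cyclin D kinases, had 11.1 ± 0.980 CPM in Ground and 8.83 ± 1.83 CPM in Space (SD, n = 3; -0.33, SE 0.18, edgeR adjusted p = 0.9999). The sum of the fibroblast markers was lower in Space-1 and Space-3, at 561 and 565 CPM, than in the other 4 libraries. It was highest in Space-2, at 687 CPM. There the repressed genes summed to 97.1 CPM, against 98.2 to 111 CPM in Ground. The lower level in Space-1 and Space-3 did not hold for each fibroblast marker, and Postn had 1.75 CPM in Ground-3 and 2.36 CPM in Space-3. The part of fibroblast markers in the values of the repressed genes was not tested. The MLX targets Txnip and Arrdc4 had log2 fold changes of -0.0030 (SE 0.082) and 0.010 (SE 0.11).

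The difference between libraries that Mycn and Mycl showed was also found in several of these lists, and not in others. Ground-3 and Space-1 were the highest 2 of the 6 libraries for 5 of the 7 family genes, namely Mycn, Mycl, Mxd1, Mxi1 and Mga, for 21 of 28 growth targets, for 7 of 11 PRC1.6 subunits and for 7 of 14 glycolysis genes. Over all tested genes this held for 23.5%. Among the 13 cofactors it was 3, and among the 14 germ cell and meiotic genes 2. Of the 6 MAX network partners it held for 3, and for the other 3 these libraries were the lowest 2. It held for 2 of the 6 repressed genes and 0 of the 2 MLX targets. The margin was small for Mxi1, with 48.6 CPM in Ground-3 and 48.2 CPM in Ground-2. It was also small for Mga, with 324 CPM in Space-1 and 317 CPM in Ground-2. This description was chosen after the values had been seen, and the libraries were not tested against each other. The mean log2 CPM of the growth targets, relative to their mean over 6 libraries, was -0.078, -0.020 and 0.098 over Ground libraries and 0.098, -0.025 and -0.072 over Space libraries. Its highest values were in Ground-3 and Space-1 and its lowest in Ground-1 and Space-3. Cad had 575, 587 and 667 CPM over Ground libraries and 720, 616 and 573 CPM over Space libraries.

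**Figure D4:**
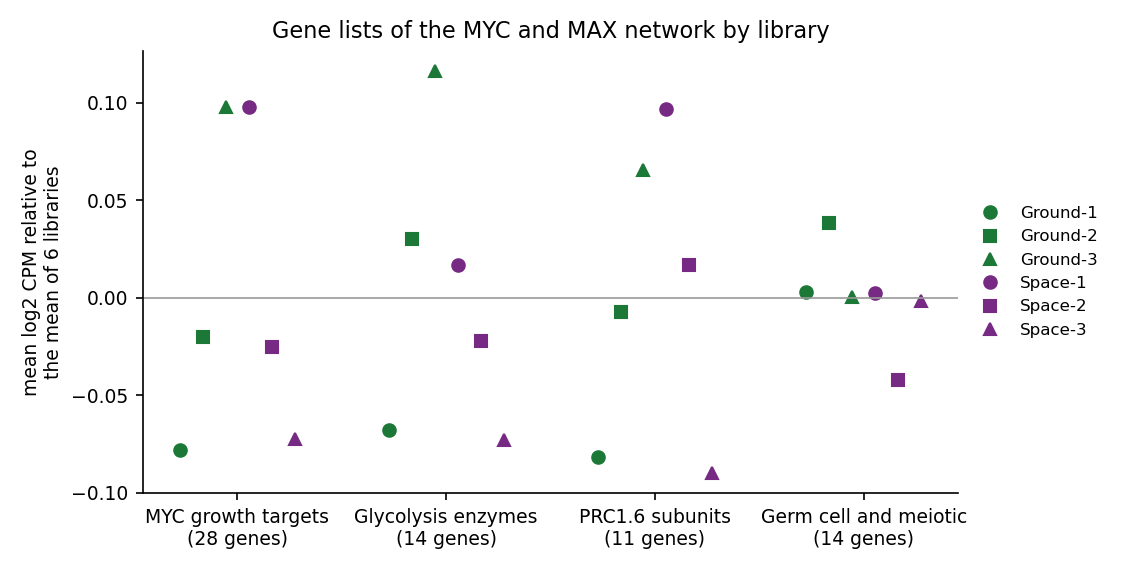
Mean log2 CPM of 4 gene lists relative to the mean of the 6 libraries (vertical axis), 1 point per library, green for Ground and purple for Space. Growth targets lie at 0.098 in both Ground-3 and Space-1 and at -0.078 and -0.072 in Ground-1 and Space-3, while germ cell and meiotic genes stay between -0.042 and 0.038.

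Ground-3 and Space-1 were the lowest 2 libraries for 1 of the 28 growth targets. This gene, Ccnd2, a cyclin of the G1 phase, had 737, 521 and 447 CPM over Ground libraries and 445, 529 and 753 CPM over Space libraries. Hk2, on the glycolysis list, had 355, 257 and 216 CPM over Ground libraries and 225, 277 and 351 CPM over Space libraries. Both were highest in Ground-1 and Space-3, in which Myc was high and Mycn low. The GDNF-responsive self-renewal factor Bcl6b had 364, 222 and 59.1 CPM over Ground libraries and 57.6, 218 and 371 CPM over Space libraries, and Etv5 had 259, 202 and 93.0 CPM and 99.1, 195 and 262 CPM. Ccnd2, Bcl6b, Etv5 and, further on, single endothelial and fibroblast markers are named here after their values had been seen.

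The genes most like each paralogue were ranked by Pearson's r of log2 CPM over the 6 libraries, among the tested genes with a mean of at least 10 CPM, 9510 for Myc and 9509 for Mycn and Mycl. The 6 points are the same libraries for every gene and lie in close pairs, so r is a description and no p is given. For Mycn they were Btf3 (r = 0.9995), Fkbp3 (r = 0.999) and Rcn3 (r = 0.999). For Mycl they were Arf5 (r = 0.9997), Rtcb (r = 0.998) and Psmb8 (r = 0.998). For Myc they were Vasp (r = 0.997), Txndc11 (r = 0.997) and Slc4a2 (r = 0.996). Rcn3 had 23.5, 27.2 and 41.4 CPM over Ground libraries and 40.6, 28.5 and 22.9 CPM over Space libraries.

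Some markers of other cells also differed between libraries. The 4 endothelial markers, all tested, summed to 22.0, 15.3 and 12.1 CPM over Ground libraries and 11.5, 14.1 and 20.5 CPM over Space libraries. This sum had the library order of Myc. Kdr, one of them, had 9.14, 2.93 and 1.14 CPM over Ground libraries and 1.07, 3.57 and 7.56 CPM over Space libraries, highest in Ground-1 and lowest in Space-1 as Myc was. Cdh5 had 3.87, 2.72 and 1.18 CPM over Ground libraries and 0.618, 2.02 and 3.3995 CPM over Space libraries. Pecam1, the most abundant of the 4, had 7.70, 8.57 and 8.55 CPM over Ground libraries and 8.85, 7.46 and 8.08 CPM over Space libraries, highest in Space-1 where Myc was lowest. Tek lay between 0.947 and 1.48 CPM, and Pecam1 and Tek did not share the library order of Kdr and Cdh5. Of the 5 macrophage markers 2 were tested, summing with the rest to 14.1 to 22.6 CPM in Ground and 17.3 to 21.9 CPM in Space, and Adgre1, Csf1r and Lyz2 had at most 2 counts in every library. The 7 testicular somatic markers, 5 of them tested, summed to 29.5 to 32.2 CPM in Ground and 29.2 to 31.2 CPM in Space. The macrophage and the testicular somatic sums were both highest in Ground-1 and Space-3, as Myc was. The summed fibroblast markers, of which Fn1 was the most abundant, did not follow the order of Myc. They had 561 CPM in Space-1 and 565 CPM in Space-3, where Myc had 0.824 and 2.24 CPM. Single fibroblast markers differed from the sum. Of the 10, 4 were lowest in Ground-3 and Space-1 as Myc was, namely Pdgfrb, Lum, Postn and Fbn1. Over all tested genes this held for 23.5%. The part of other cells in the level of Myc was not tested.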

How the data were processed

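The authors deposited raw counts per gene for 6 poly(A) RNA libraries of GS cells, with no normalization and no pooling. Per the submitters' processing notes, they used bcl2fastq 2.20, cutadapt 4.1, HISAT2 2.2.1 and HTSeq 2.0.2 with mm10, and per the methods the GENCODE M21 annotation. Strand setting and handling of shared reads were not stated. Of 32285 gene identifiers 32235 were in M21.

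Counts were filtered by filterByExpr, scaled with TMM factors (trimmed means of log ratios) and tested over all 15104 genes with edgeR 4.0.16 in R 4.3.3 (quasi-likelihood F test, 2-sided, no replicate block, Benjamini-Hochberg adjustment, threshold 0.05). The standard error is the log2 fold change divided by the square root of F. CPM used TMM-scaled totals, and log2 CPM a prior count of 2. Lengths came from M21. The calls and the log2 fold changes of the members were recomputed with DESeq2 1.42.0, limma-voom (limma 3.58.1), RLE factors or plain totals, and 2 other count filters. They were also recomputed without mitochondrial genes, with 2 replicate blocks, and without each library in turn. Medians of the family and the lists were not recomputed with DESeq2 or limma-voom. The order per kilobase was recomputed with another length and with plain totals, and the likeness with another minimum mean. The fits without a block in edgeR, limma-voom and DESeq2 were tried on simulated counts with known folds. That simulation held no pairs of libraries and did not cover the replicate blocks, the order per kilobase, the ratios or the likeness.

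All 7 members, all partners, the extremes and the most abundant gene of each list, and the 3 genes most like each paralogue were named by rule, except some that are not reported here. Members and lists were chosen with earlier results of these data known.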

Additional observations from a re-analysis of the deposited data

How the results depend on the processing

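No Myc family gene and none of the listed partner and target genes passed the threshold in any of the 15 alternatives, and the lowest adjusted p of a member was 0.636, for Mga with the crossed matching as a replicate block. That replicate block gave 38 genes past the threshold among all tested genes in place of 0, and every other alternative gave 0. It comes from these counts and not from a label. The replicate numbers of the titles did not pair the libraries, with correlations of the deviations of same-numbered libraries of -0.50, 0.30 and -0.61. With these numbers as a replicate block 0 genes passed, 63 had an unadjusted p under 0.05, and Mycn had a log2 fold change of 0.011 (SE 0.29). Of 105 values of single members 15 turned sign, none of them past the threshold. Total counts, which moved the median of all genes to 0.033, gave Mxd1 0.0081 and Mxi1 0.023. Leaving out 1 library gave from 0 to 0 genes past the threshold, and log2 fold changes from -0.76 to 0.36 for Myc, -0.23 to 0.26 for Mycn, -0.19 to 0.25 for Mycl, -0.12 to 0.16 for Mxd1, -0.082 to 0.067 for Mxi1, 0.013 to 0.090 for Max and -0.082 to -0.0020 for Mga. The lone sign change of Myc was without Ground-1. The median over the 7 genes ran from -0.082 to 0.074 and that of the glycolysis genes from -0.12 to 0.016 over these settings, and that of the genes repressed by MYC from -0.21 to -0.063. Myc had 20 to 75 counts a library, and its SE went from 0.53 to 0.25 with the crossed matching as a replicate block. Counting 1 CPM as the minimum mean in place of 10 kept 7 of the 9 most similar genes.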
